A study of Mus musculus with 2 samples.

Results

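The genes described here encode 3 neuregulins (Nrg1, Nrg2 and Nrg3), 3 receptors of the epidermal growth factor receptor (ErbB) family (Egfr, Erbb3 and Erbb4) and 3 fibroblast growth factor receptors (Fgfr1, Fgfr2 and Fgfr3). They were chosen by symbol, and all 9 were found among the 33696 genes of the count matrices. Nrg1 occupied 2 rows, of which the second identifier (ENSMUSG00000118541) had 0 UMIs in both libraries, so its values rest on ENSMUSG00000062991. The data are single-nucleus RNA counts from the mouse hippocampus at postnatal day 19. The control library came from Cic flox/flox mice, and the library labelled knockout came from Emx1-Cre; Cic flox/flox littermates, so every mouse carried the floxed alleles of Cic, the gene of the transcriptional repressor Capicua. Tissue of 3 mice per genotype, 2 males and 1 female, was pooled before nuclei were prepared, with 1 hippocampus taken from each mouse. Emx1-Cre recombines in the dorsal telencephalic lineage, which gives rise to hippocampal excitatory neurons and to part of the glia, whereas interneurons and microglia arise outside it.

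Neuregulins are made as membrane proteins with an EGF-like domain, and proteases release or expose that domain to neighbouring cells. Erbb4 and Erbb3 bind neuregulins directly, Egfr binds EGF-type ligands and not neuregulins, and receptor dimers signal through the Ras and ERK kinases. FGF receptors bind fibroblast growth factors and feed the same kinase cascade through the adaptor Frs2. Capicua represses genes that this cascade turns on, and ERK signalling relieves that repression. In the forebrain Erbb4 is known as a receptor of interneurons, Fgfr3 as a receptor of astrocytes, and Egfr as a receptor of progenitors and glia.

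RefSeq promoter windows (GRCm38.p6) were at hand for 5 of the 9 genes, in 6 windows; Nrg1, Nrg2, Erbb3 and Fgfr1 are named only. The 250 bases upstream of the start sites of Egfr (chr11:16751953-16752202, plus strand) and Nrg3 (chr14:39473089-39473338, minus strand) are shown. These were the 2 genes with a window whose class sums differed in dentate granule-like nuclei. Egfr was lower and Nrg3 higher in the library labelled knockout. The Egfr level was low, and the 2 clusters of that class went opposite ways for it, as given below. Capitals mark a GC box, GGGCGG, read on either strand.
Egfr: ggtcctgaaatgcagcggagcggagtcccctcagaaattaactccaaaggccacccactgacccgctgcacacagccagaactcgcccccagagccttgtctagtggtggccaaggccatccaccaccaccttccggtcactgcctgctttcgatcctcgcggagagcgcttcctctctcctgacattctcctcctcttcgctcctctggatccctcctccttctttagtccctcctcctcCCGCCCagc
Nrg3: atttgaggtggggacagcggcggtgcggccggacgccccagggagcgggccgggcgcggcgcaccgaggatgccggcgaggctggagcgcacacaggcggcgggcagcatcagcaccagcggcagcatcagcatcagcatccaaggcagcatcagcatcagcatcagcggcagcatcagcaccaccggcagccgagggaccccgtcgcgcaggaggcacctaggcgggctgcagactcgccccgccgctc
Egfr held 1 GC box and Nrg3 none. A GC box stood in 3 of the 6 windows and in 32.7% of the 32851 windows of the same length. None of the 6 held a Capicua octamer (TGAATGAA, TGAATGGA, TCAATGAA or TCAATGGA, either strand), which 3.19% of all windows held, and none held the ETS motif CCGGAAGT, which 2.88% held. Only GC boxes matched, so no motif overlapped one of another kind. The absence of a match says only that these letters are not in these windows.

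The control library held 314453640 UMIs in 25907 barcodes and the library labelled knockout 252995761 in 23207; 21865 and 20531 nuclei entered the comparisons, at medians of 9790 and 8766 UMIs. The libraries shared 175 barcode sequences, 129 of them among the nuclei used, and the 20 ratios at least 1.5-fold apart moved by less than their counting interval without them. Cic itself was not lower under the knockout label: dentate granule-like nuclei held 488 and 471 UMIs of it (control first) and CA1-like nuclei 362 and 506. By level (CPM, defined below) it was higher in both, at log2 ratios of 0.46 and 0.85. It was also at least 1.5-fold higher in CA3-like, subicular excitatory-like, deep-layer excitatory-like and oligodendrocyte-like nuclei, and near level in inhibitory and microglia-like nuclei. Which exons the reads cover was not given in the sources used here, so Cic does not check the label, and directions below are those of the label. Etv4, a known Capicua target, had 57 UMIs against 4285 in dentate granule-like nuclei (log2 ratio 6.73) and 101 against 4138 in CA1-like nuclei (5.71). It was also higher outside the Emx1 lineage, in microglia-like nuclei (21 and 84 UMIs, 2.36). Interneurons of caudal (20 and 90 UMIs, 2.23) and medial ganglionic origin (31 and 85 UMIs, 1.74) were higher too. Oligodendrocyte precursor-like nuclei gave 0.65 (669 and 1004 UMIs). The reason was not tested. Classes are clusters named by marker genes, hence "-like", and 17 classes had at least 100 nuclei in each library. With 1 library per group nothing can be tested, and the 95% intervals given cover counting error only. Fewer nuclei of a subtype within a class and less RNA per nucleus cannot be told apart in a class sum.

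Levels are in CPM, where the UMIs that a gene has in a class are divided by all UMIs of that class in the same library, and a difference is given as the log2 ratio of the library labelled knockout over the control. Of 153 gene and class pairs, 110 had 50 or more UMIs and 10 or more CPM in whichever library was higher. Among those 110, 13 pairs were higher and 7 lower by 1.5-fold or more; over all genes and classes 3.45% were higher and 1.94% lower by that much (5.39% in all). At 2-fold the counts were 6 higher and 3 lower, beside 1.57% of all genes (1.10% and 0.472%). Fgfr1 and Erbb4 in Cajal-Retzius-like and Fgfr1 in committed oligodendrocyte precursor-like nuclei met the minimum only in the library labelled knockout. Egfr in dentate granule-like nuclei, and Egfr and Nrg2 in microglia-like nuclei, met it only in the control. These calls rest on the library where the gene was high. Fgfr1 accounted for 8 of the 13 higher pairs. The neuregulins accounted for 5 of the 7 lower ones, but Nrg1 and Nrg3 also gave 2 higher pairs each. Microglia-like nuclei, used below as a reference for free RNA, made up 4 of the 7 lower pairs (Nrg1, Nrg2, Nrg3 and Egfr) and 1 of the 13 higher pairs. In dentate granule-like nuclei the 7 genes past the minimum had a median log2 ratio of -0.02, beside 0.01 for all 8419 genes. Over the classes such medians ran from -0.60 in microglia-like nuclei (7 genes, 0.03 for all 8692) to 0.34 in CA2-like nuclei (4 genes, 0.07 for all 6026). The pairs that did not reach a minimum were mainly Erbb3 and Fgfr3, each of which passed in 2 classes only.

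**Figure D1:**
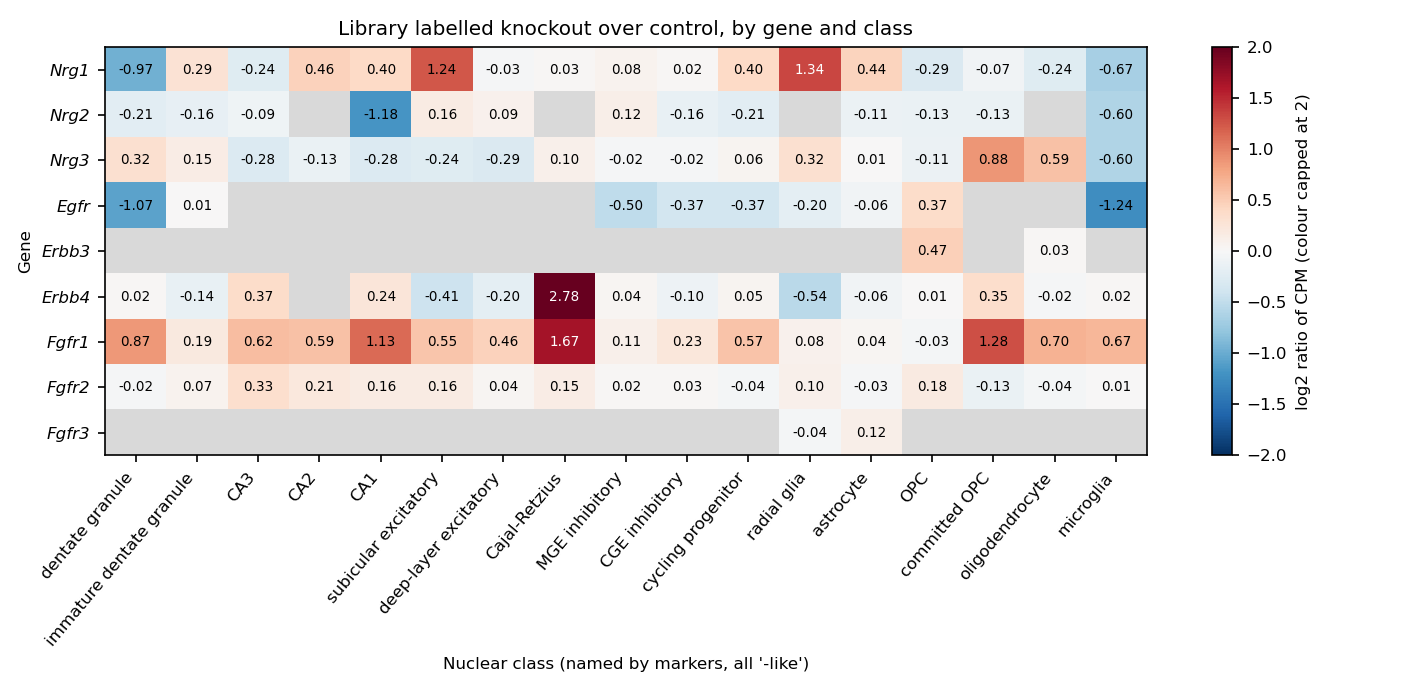
Log2 ratio of CPM (library labelled knockout over control) for each gene (rows) and nuclear class (columns); red is higher and blue lower in the library labelled knockout, grey fields did not reach 50 UMIs and 10 CPM, and the colour stops at 2. The Fgfr1 row is red in most columns, up to 1.67 in Cajal-Retzius-like nuclei, while the Nrg1 row runs from -0.97 in dentate granule-like to 1.34 in radial glia-like nuclei.

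Nrg1, a neuregulin known from synapse and myelin biology, differed between classes in the direction as well as the size of its difference. In the control its level was highest in Cajal-Retzius-like nuclei (4587 CPM), followed by deep-layer excitatory-like nuclei (3032 CPM). Committed oligodendrocyte precursor-like (1900 CPM) and CA1-like nuclei (1852 CPM) came next and had overlapping intervals. Dentate granule-like nuclei stood at 552 CPM, CA3-like at 407, CA2-like at 261 and microglia-like, the lowest of the 17, at 60.0 with an interval overlapping that of oligodendrocyte-like nuclei (67.8). In the library labelled knockout the first 5 were Cajal-Retzius-like (4670 CPM), deep-layer excitatory-like (2973 CPM), CA1-like (2444 CPM), subicular excitatory-like (2135 CPM) and committed oligodendrocyte precursor-like nuclei (1809 CPM).

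In dentate granule-like nuclei, the cells whose axons are the mossy fibers, Nrg1 had 29817 UMIs in 4394 control nuclei and 10747 UMIs in 3367 nuclei of the library labelled knockout. The levels of 552 and 282 CPM gave a log2 ratio of -0.97 (-0.998 to -0.93). In this class 7.79% of all genes were at least 1.5-fold apart, and 2.92% at least 1.5-fold lower. The difference lay in the UMIs per nucleus (6.79 and 3.19) more than in the share of nuclei with a UMI (62.3% and 59.9%), and with each nucleus thinned to 2000 UMIs, and shallower nuclei left out, those shares were 39.2% and 30.4%. Female nuclei, from 1 mouse per library, gave -0.97 (614 and 314 CPM), and male nuclei gave -0.92 (504 and 266 CPM). The class was made of 2 clusters that each came mostly from 1 library: cluster 1 held 973 control and 3235 labelled knockout nuclei, and cluster 3 held 3421 and 132. Nrg1 was lower within both, at -1.27 (673 and 280 CPM) in cluster 1 and -0.60 (521 and 345 CPM) in cluster 3. The 8 markers of the class, all detected in both libraries, summed to 1636 and 1024 CPM (control first), and markers of immature granule nuclei to 122 and 182 CPM; their part in the difference was not tested.

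Immature dentate granule-like nuclei had more Nrg1 under the knockout label, with 12824 and 14157 UMIs (886 and 1083 CPM, log2 ratio 0.29, 0.25 to 0.32). The 2 libraries were thus on opposite sides in the younger and the older granule class. Within the immature class the ratio was 0.33 in cluster 0 and 0.07 in cluster 11.

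Subicular excitatory-like nuclei had 14704 Nrg1 UMIs in 659 control nuclei and 31927 in 692 nuclei of the library labelled knockout, or 904 and 2135 CPM (log2 ratio 1.24, 1.21 to 1.27; 8.64% of all genes at least 1.5-fold apart). Shares of nuclei with a UMI were 82.5% and 92.5%. The ratio was 1.58 in female and 0.95 in male nuclei. Part of it went with the makeup of the class: cluster 36, with 3 control and 62 labelled knockout nuclei, had 8511 and 7401 CPM of Nrg1, and without it the ratio was 0.84. In the largest cluster, number 12 (542 and 492 nuclei), the levels were 631 and 1206 CPM (0.94). Cluster 28 gave 0.31 (2421 and 2997 CPM), and cluster 37, with 17 and 45 nuclei, gave -0.13. The subicular markers summed to 2295 and 2537 CPM.

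CA1-like nuclei had 99288 and 101822 Nrg1 UMIs, or 1852 and 2444 CPM (log2 ratio 0.40, 0.39 to 0.41), with 0.42 in female and 0.37 in male nuclei. The 2 CA1-like clusters went opposite ways. In cluster 4 (1720 and 1334 nuclei) Nrg1 stood at 1378 and 2722 CPM (0.98, 0.96 to 1.00), and in cluster 7 (983 and 1070 nuclei), whose leading genes included Dcn, Pde11a and Cpne7, at 2584 and 2138 CPM (-0.27, -0.29 to -0.25). In the control the level was thus lower in cluster 4 than in cluster 7, and under the knockout label it was higher. CA3-like nuclei had slightly less Nrg1 (407 and 344 CPM, -0.24), which was so in cluster 8 (-0.12) and in cluster 19 (-0.39).

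Radial glia-like nuclei, a class named for genes of the dentate stem cell lineage, had 419 Nrg1 UMIs in 461 control nuclei and 689 in 343 labelled knockout nuclei. The levels were 254 and 644 CPM (log2 ratio 1.34, 1.17 to 1.52; 5.93% of all genes at least 1.5-fold apart), and 13.0% and 22.2% of nuclei had a UMI. Microglia-like nuclei, which should lack Nrg1, gave a reference for free RNA: 6.71% and 5.69% had a UMI, at median depths of 2155 and 1719 UMIs beside 3359 and 2987 in radial glia-like nuclei. At 2000 UMIs per nucleus the radial glia-like shares were 10.9% and 18.6% and the microglia-like shares 5.14% and 5.23%. Thinning left out 664 of 1520 control and 959 of 1475 labelled knockout microglia-like nuclei, so every thinned microglia-like share rests on the deeper 856 and 516. The difference in radial glia-like nuclei came mainly from female nuclei: 207 and 851 CPM (2.04, 1.72 to 2.37), against 379 and 440 CPM (0.22, -0.07 to 0.50) in male nuclei. The 5 nuclei with the most Nrg1 held 38.2% and 27.1% of its UMIs, and the ratio without them was 1.58.

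Other glia differed less. Astrocyte-like nuclei had 207 and 282 CPM (0.44) and cycling progenitor-like nuclei 1123 and 1481 CPM (0.40). Oligodendrocyte precursor-like nuclei were lower (1050 and 861 CPM, -0.29), and committed precursors differed little (1900 and 1809 CPM, -0.07). Of the classes outside the Emx1 lineage, MGE inhibitory-like nuclei (interneurons of medial ganglionic origin) gave 0.08 (240 and 253 CPM). CGE inhibitory-like nuclei (of caudal ganglionic origin) gave 0.02 (680 and 688 CPM), turning to -0.03 and -0.05 under 2 other scalings. Microglia-like nuclei, also outside it and used as the reference for free RNA, gave -0.67 (209 and 100 UMIs, -1.03 to -0.32). That value was 0.033 in female nuclei.

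Nrg2, a second neuregulin of neurons, was highest in granule neurons and lower in the pyramidal fields. The control level was 355 CPM in dentate granule-like, 276 in immature dentate granule-like and 234 in CGE inhibitory-like nuclei, against 49.5 in CA1-like, 24.1 in CA3-like and 11.7 in CA2-like nuclei. The order of the first 3 was the same in the library labelled knockout (306, 247 and 210 CPM). In dentate granule-like nuclei the UMIs were 19173 and 11660 (log2 ratio -0.21, -0.24 to -0.18).

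Its one difference of more than 2-fold was in CA1-like nuclei, where 2654 UMIs in the control stood against 913 in the library labelled knockout. The levels were 49.5 and 21.9 CPM (log2 ratio -1.18, -1.29 to -1.07). In this class 8.49% of all genes were at least 1.5-fold apart and 0.623% at least 2-fold lower. A UMI was found in 45.2% and 23.8% of nuclei, and at 2000 UMIs per nucleus in 9.18% and 3.41%, where microglia-like nuclei had 1.87% and 0.775%. Female nuclei gave -1.41 (53.1 and 19.9 CPM) and male nuclei -1.09 (45.6 and 21.4 CPM). The ratio was -1.75 (56.2 and 16.7 CPM) in cluster 4 and -0.51 (39.2 and 27.6 CPM) in cluster 7. Nrg2 was thus lower in both clusters and more so in cluster 4, where Nrg1 was higher. Neighbouring subicular excitatory-like nuclei had 62.8 and 70.2 CPM of Nrg2 (0.16), and CA3-like nuclei 24.1 and 22.6 CPM (-0.09). An antisense gene that overlaps Nrg2 in GENCODE M21, 4930471G03Rik, had 49 and 13 UMIs in CA1-like nuclei (-1.51, -2.56 to -0.65).

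**Figure D2:**
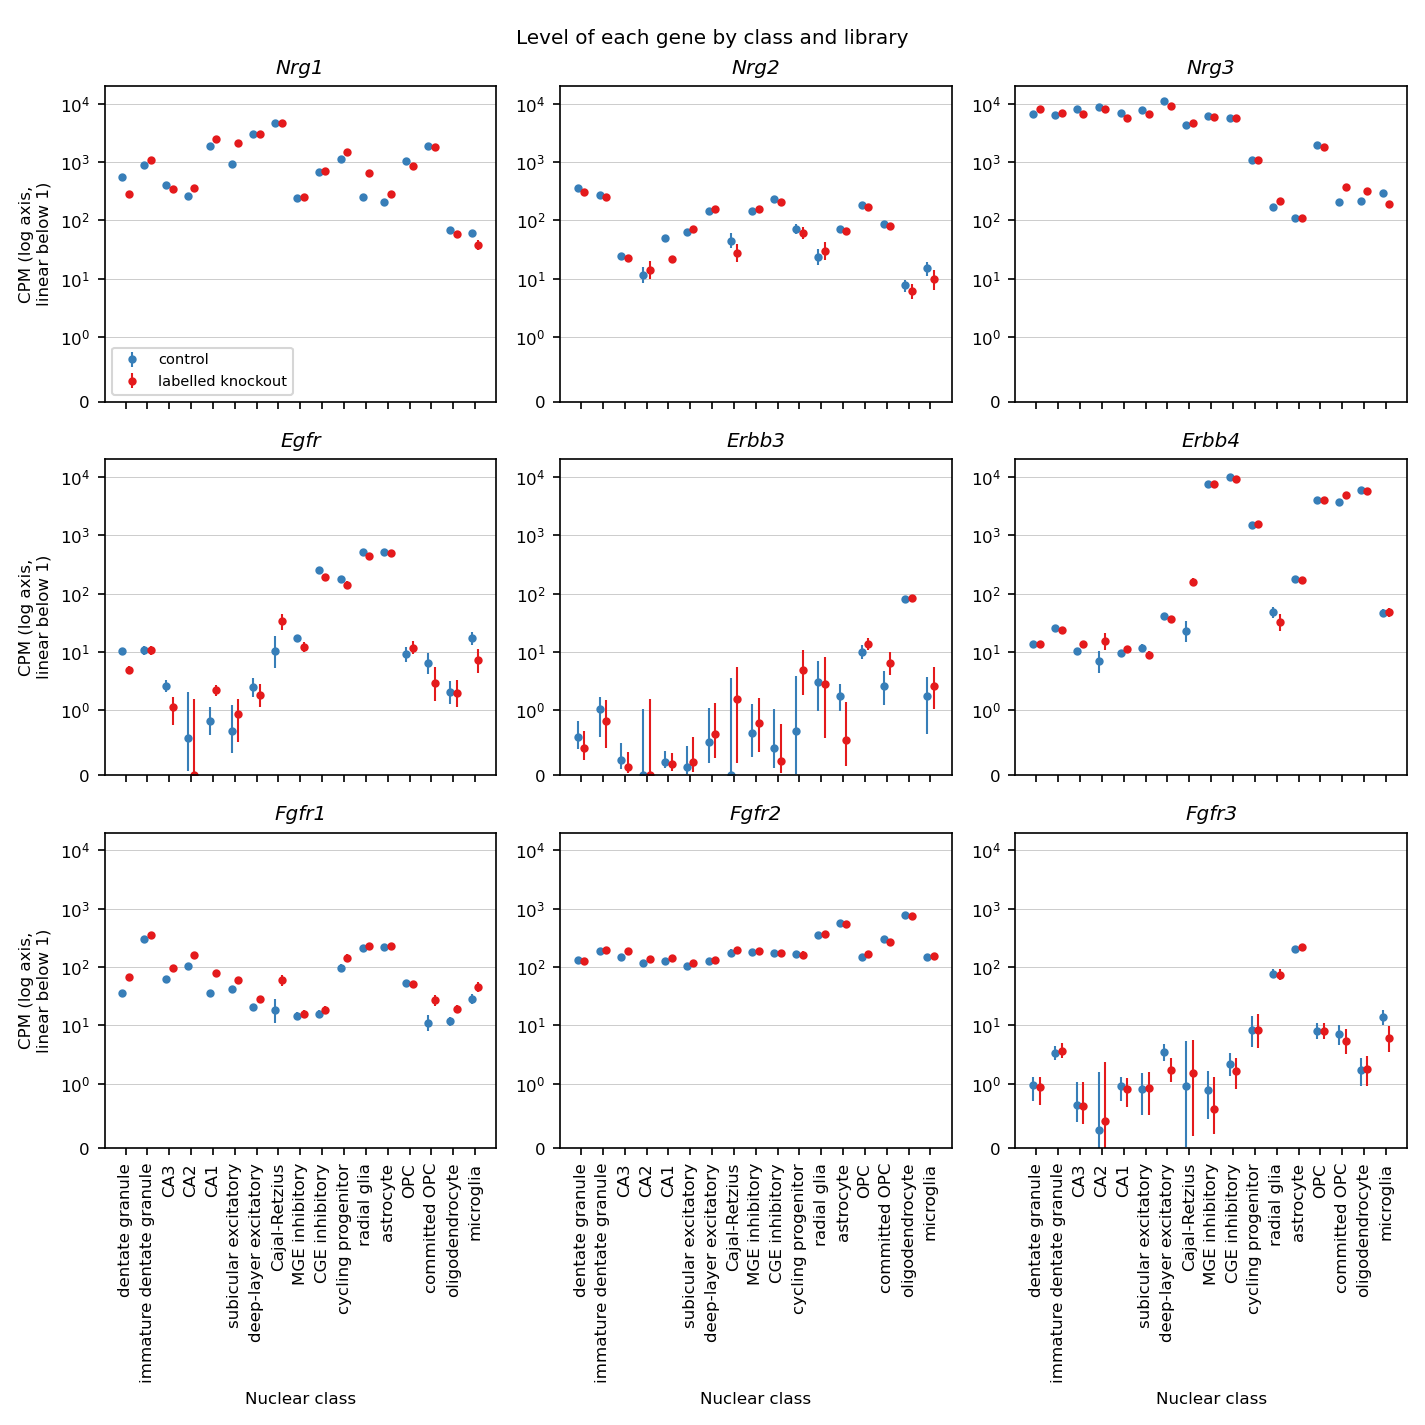
Level of each gene in CPM (log axis, linear below 1) in the 17 classes, control in blue and the library labelled knockout in red, with 95% counting intervals; OPC stands for oligodendrocyte precursor. Nrg3 is high in all neuronal classes, Erbb4 in the inhibitory and oligodendrocyte lineage classes, and Fgfr3 in astrocyte-like (199 CPM in the control) and radial glia-like nuclei.

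Nrg3, a largely neuronal neuregulin, was at 4324 CPM or more in every neuronal class of the control. Deep-layer excitatory-like nuclei led with 11112 CPM, and CA2-like (8744 CPM), CA3-like (8134 CPM) and subicular excitatory-like nuclei (7706 CPM) followed. Dentate granule-like nuclei had 6550 CPM, and 100% of them had a UMI in both libraries. Under the knockout label the granule class moved up this order, from the sixth to the second place (8204 CPM).

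The differences in neurons were all under 1.5-fold but split by class. Dentate granule-like nuclei had 354094 and 312171 UMIs, at a log2 ratio of 0.32 (0.32 to 0.33), with 0.27 in female and 0.36 in male nuclei, and the immature class had 6258 and 6945 CPM (0.15). Cajal-Retzius-like nuclei were slightly higher as well (0.10), and all 5 pyramidal and deep-layer classes were lower: CA3-like nuclei at 8134 and 6708 CPM (-0.28), CA1-like at 6759 and 5578 CPM (-0.28), deep-layer excitatory-like at -0.29, subicular excitatory-like at -0.24 and CA2-like at -0.13. In CA3-like nuclei the ratio was -0.39 in female and -0.22 in male nuclei, and in CA1-like nuclei -0.39 and -0.22 as well. Both inhibitory classes gave -0.02 (6091 and 5999 CPM in MGE inhibitory-like nuclei). None of these signs turned under the other 2 scalings.

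Larger ratios came from committed oligodendrocyte precursor-like and oligodendrocyte-like nuclei, where Nrg3 was low. Committed oligodendrocyte precursor-like nuclei had 785 and 1264 UMIs, or 204 and 376 CPM (log2 ratio 0.88, 0.75 to 1.01; 6.12% of all genes at least 1.5-fold apart), and oligodendrocyte-like nuclei had 2036 and 2565 UMIs, or 213 and 322 CPM (0.59, 0.51 to 0.68; 9.73%). Microglia-like nuclei, the reference for free RNA, had 288 and 191 CPM, so the control levels of both classes lay below it and the other library's levels above it. Per nucleus the order was another: committed precursors had 1.56 and 2.53 UMIs, oligodendrocyte-like nuclei 1.77 and 2.82, and microglia-like nuclei 0.661 and 0.344. At 2000 UMIs per nucleus a UMI was found in 20.1% and 29.2% of committed precursors, in 24.4% and 33.4% of oligodendrocyte-like and in 25.7% and 24.4% of microglia-like nuclei; the control shares were thus no higher than the reference at equal depth. With doublets kept the ratios became -0.02 and -0.58. Nrg3 was higher within all 4 clusters concerned, at 0.87 and 0.78 in clusters 16 and 26 of the committed precursors and at 0.55 and 0.36 in clusters 9 and 18 of the oligodendrocytes. In oligodendrocyte-like nuclei the CA3 marker list summed to 100 and 181 CPM and the CA1 list to 1871 and 1657 CPM; their part in the result was not tested. Oligodendrocyte precursor-like nuclei, with 1948 and 1803 CPM, gave -0.11.

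Egfr, the receptor of EGF-type ligands, was a gene of astrocyte-like (515 CPM in the control, 493 in the other library), radial glia-like (511 and 445 CPM), CGE inhibitory-like (249 and 193 CPM) and cycling progenitor-like nuclei (180 and 139 CPM). The intervals of the first 2 overlapped, and all others of the 17 classes were at 17.2 CPM or less in the control. Astrocyte-like nuclei gave a log2 ratio of -0.06 (-0.13 to -0.00) and radial glia-like nuclei -0.20 (-0.36 to -0.03). In CGE inhibitory-like nuclei the UMIs were 2404 and 1757 (-0.37, -0.46 to -0.28), with -0.56 in female and -0.22 in male nuclei. There it was -0.59 in cluster 15 (166 and 110 CPM), whose leading genes included Vip, and -0.17 in cluster 23 (384 and 341 CPM), whose leading genes included Lamp5. Egfros, an antisense gene that overlaps Egfr in GENCODE M21, had 107 and 42 UMIs in CGE inhibitory-like nuclei (-1.25, -1.81 to -0.74). Of the 9 classes past the minimum Egfr was lower in 7, though only in dentate granule-like and microglia-like nuclei by 1.5-fold or more. No such count was made over all genes. Below the minimum, Cajal-Retzius-like (10.5 and 33.2 CPM), CA1-like and subicular excitatory-like nuclei were higher in CPM. Committed oligodendrocyte precursor-like, oligodendrocyte-like, CA3-like, CA2-like and deep-layer excitatory-like nuclei were lower.

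In dentate granule-like nuclei Egfr was counted 566 times in the control against 190 times under the knockout label, at 10.5 and 4.99 CPM (log2 ratio -1.07, -1.31 to -0.83; 1.06% of all genes in this class at least 2-fold lower). The ratio was -0.95 in female and -1.12 in male nuclei. The level is low: 7.53% and 3.42% of nuclei had a UMI, and per nucleus there were 0.129 and 0.0564 UMIs, against 0.0395 and 0.0129 in microglia-like nuclei. At 2000 UMIs per nucleus the shares were 1.5% and 1.07%, beside 2.57% and 1.16% of microglia-like nuclei, and the ratio of the thinned counts was -0.64. Cluster 1 gave -0.64 (-1.03 to -0.22) and cluster 3, with 132 labelled knockout nuclei, gave 0.53 (-0.12 to 1.07). Astrocyte markers, whose class is the highest in Egfr, summed to 1417 and 1222 CPM in dentate granule-like nuclei, and their part in the difference was not tested. Microglia-like nuclei had 60 and 19 Egfr UMIs (-1.24; 6.42% of all genes at least 1.5-fold apart); 28 control nuclei of cluster 39 held 41 of the 60, and without them the ratio was 0.33. The microglia-like control level was 17.2 CPM with cluster 39 and 5.69 CPM without it, above and below the 10.5 CPM of dentate granule-like nuclei, so the order of these 2 control levels in CPM turned on those 28 nuclei.

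Erbb3, a neuregulin receptor that signals with a partner, was a gene of oligodendrocyte-like nuclei, with 780 and 663 UMIs (81.7 and 83.2 CPM, log2 ratio 0.03, -0.13 to 0.18). A UMI was found in 42.8% and 47.4% of these nuclei and in 0.395% and 0.407% of microglia-like nuclei. Oligodendrocyte precursor-like nuclei came next with 54 and 72 UMIs (9.88 and 13.7 CPM, 0.47, -0.05 to 1.01). Neither difference was past counting error. The other 15 classes did not reach the minimum, and CA2-like nuclei had 0 UMIs in both libraries, which, with 3 UMIs per library as the floor, allows up to 0.857 CPM in the control and 1.25 CPM in the other library.

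Erbb4, the receptor of all 3 neuregulins, had its highest levels in CGE inhibitory-like (9941 and 9297 CPM), MGE inhibitory-like (7419 and 7649 CPM) and oligodendrocyte-like nuclei (5844 and 5759 CPM). Oligodendrocyte precursor-like (3990 and 4027 CPM) and committed oligodendrocyte precursor-like nuclei (3772 and 4797 CPM) followed, then cycling progenitor-like nuclei (1480 and 1532 CPM) and astrocyte-like nuclei (179 and 171 CPM). In the control no 2 neighbours among these 7 had overlapping intervals. The granule and pyramidal classes lay between 6.85 and 26.1 CPM in the control, below the 47.1 CPM of microglia-like nuclei. Depth differed, with a control median of 18906 UMIs in CA1-like and 2155 in microglia-like nuclei, so CPM does not give the order per nucleus. At 2000 UMIs per nucleus 2.60% and 2.98% of dentate granule-like nuclei had a UMI, against 7.59% and 6.98% of microglia-like nuclei. Per nucleus the counts were 0.165 and 0.154 in dentate granule-like and 0.108 and 0.0861 in microglia-like nuclei. Gm16076, which overlaps Erbb4 on the same strand in GENCODE M21, had 12 and 10 UMIs in CGE inhibitory-like and 9 and 7 in MGE inhibitory-like nuclei.

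Where Erbb4 was abundant the libraries were close. The log2 ratio was 0.04 in MGE inhibitory-like, -0.10 in CGE inhibitory-like, 0.01 in oligodendrocyte precursor-like and -0.02 in oligodendrocyte-like nuclei, and all but the CGE value changed sign under another scaling. Committed oligodendrocyte precursor-like nuclei were the exception, with 14521 and 16139 UMIs (0.35, 0.31 to 0.38), at 0.34 in cluster 16 and 0.38 in cluster 26. One ratio of more than 1.5-fold was seen, in Cajal-Retzius-like nuclei, with 24 UMIs in 177 control nuclei and 207 in 233 labelled knockout nuclei (22.9 and 160 CPM, log2 ratio 2.78, 2.19 to 3.48; 9.24% of all genes at least 1.5-fold apart). It rested on a few nuclei: 5 nuclei held 89.9% of the 207 UMIs, and the shares of nuclei with a UMI were 11.3% and 11.2%. Without the 5 leading nuclei of each library 15 and 21 UMIs remained (0.17), and the split by sex gave -0.20 and -0.11, from nuclei that could be given a sex. Markers of CGE inhibitory nuclei summed to 131 and 135 CPM in this class and those of oligodendrocytes to 319 and 237 CPM.

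Fgfr1 was higher under the knockout label in 16 of 17 classes, or in 15 under the other 2 scalings, where astrocyte-like nuclei turned to -0.00. The interval lay above 0 in 12 classes and below 0 in none, and 8 classes were at least 1.5-fold higher, or 6 under either other scaling, where CA3-like nuclei came to 0.53 and 0.52 and CA2-like nuclei to 0.46 in both. The 8 include committed oligodendrocyte precursor-like, oligodendrocyte-like and microglia-like nuclei, where Fgfr1 was low. How many of all genes were higher in as many classes was not counted, and the classes share the same 2 libraries. The median log2 ratio of all genes ran from -0.10 in oligodendrocyte-like to 0.10 in CA1-like nuclei. The control order of Fgfr1 began with immature dentate granule-like (305 CPM), astrocyte-like (219 CPM) and radial glia-like nuclei (214 CPM), the last 2 with overlapping intervals. CA2-like (105 CPM), cycling progenitor-like (96.6 CPM) and CA3-like nuclei (63.1 CPM) followed. CA1-like and dentate granule-like nuclei were alike in the control at 36.3 and 36.02 CPM, with overlapping intervals.

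In CA1-like nuclei Fgfr1 had 1945 UMIs against 3298 under the knockout label, at 36.3 and 79.2 CPM (log2 ratio 1.13, 1.04 to 1.21). The share of nuclei with a UMI was 44.1% and 69.2%, and at 2000 UMIs per nucleus 7.14% and 15.0%, beside 4.79% and 7.36% of microglia-like nuclei. Female nuclei gave 1.49 and male nuclei 0.92. Both clusters were higher, by 1.08 in cluster 4 and 1.32 in cluster 7. Dentate granule-like nuclei had 1947 and 2503 UMIs, or 36.02 and 65.8 CPM (0.87, 0.78 to 0.96; 4.87% of all genes at least 1.5-fold higher), with 31.8% and 47.5% of nuclei having a UMI. There the ratio was 1.08 in female and 0.72 in male nuclei, 0.67 in cluster 1 and 0.84 in cluster 3.

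CA3-like nuclei, the targets of the mossy fibers, had 1865 and 2344 UMIs, or 63.1 and 96.6 CPM (0.62, 0.53 to 0.70; 5.29% of all genes at least 1.5-fold apart), at 0.56 in cluster 8 and 0.79 in cluster 19. CA2-like nuclei had 105 and 159 CPM (0.59, 0.38 to 0.80; 11.5% of all genes at least 1.5-fold apart), subicular excitatory-like nuclei 41.4 and 60.7 CPM (0.55) and deep-layer excitatory-like nuclei 20.2 and 27.7 CPM (0.46). All these excitatory classes were higher, though in CPM deep-layer excitatory-like nuclei lay below the 28.4 and 45.1 of microglia-like nuclei. Deep-layer excitatory-like nuclei were deeper, at medians of 19298 and 15752 UMIs against 2155 and 1719, so CPM does not give the order per nucleus. The largest ratio was in Cajal-Retzius-like nuclei, with 19 and 76 UMIs (18.1 and 58.7 CPM, 1.67, 0.95 to 2.50). A UMI was found in 7.91% and 23.2% of them, and at 2000 UMIs per nucleus in 2.26% and 11.7%, which is below the microglia-like share in the control and above it in the other library. In CA2-like, CA1-like and subicular excitatory-like nuclei the median-of-ratios scaling lowers every log2 ratio by 0.14, 0.12 and 0.10.

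The 2 libraries were closer in 4 other classes. Immature dentate granule-like nuclei had 305 and 349 CPM (0.19), astrocyte-like nuclei 219 and 225 CPM (0.04, -0.06 to 0.13), radial glia-like nuclei 214 and 226 CPM (0.08) and oligodendrocyte precursor-like nuclei 52.7 and 51.5 CPM (-0.03). Cycling progenitor-like nuclei, with 96.6 and 143 CPM (0.57), were higher by just under 1.5-fold. The inhibitory classes, where Fgfr1 was low, gave 0.11 (-0.22 to 0.43; MGE, 14.4 and 15.5 CPM) and 0.23 (-0.09 to 0.56; CGE, 15.8 and 18.5 CPM). Committed oligodendrocyte precursor-like nuclei had 42 and 90 UMIs (10.9 and 26.7 CPM, 1.28) and oligodendrocyte-like nuclei 111 and 151 UMIs (11.6 and 18.9 CPM, 0.70). Over the processing alternatives these ratios ran from 0.37 to 2.51 and from 0.29 to 1.29. In CPM these 2 classes and both inhibitory classes lay below the 28.4 and 45.1 of microglia-like nuclei. Microglia-like nuclei themselves differed by 0.67 (0.27 to 1.07), with 0.019 in female and 0.77 in male nuclei. Without cluster 39 the microglia-like control level was 23.1 CPM. The inhibitory nuclei were deeper, at control medians of 18110 (MGE) and 16036 UMIs (CGE) against 2155, so CPM does not give their order per nucleus. Per nucleus, committed precursors had 0.0833 and 0.18 UMIs and oligodendrocyte-like nuclei 0.0966 and 0.166, beside 0.0651 and 0.0814 in microglia-like nuclei. Gm16159, an antisense gene that overlaps Fgfr1 in GENCODE M21, had 45 and 75 UMIs in dentate granule-like and 65 and 103 in CA1-like nuclei (1.24 and 1.02), beside the 1947 and 2503 and the 1945 and 3298 UMIs of Fgfr1.

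Fgfr2 was highest in oligodendrocyte-like nuclei (773 and 750.5 CPM), then in astrocyte-like (556 and 544 CPM), radial glia-like (347 and 372 CPM) and committed oligodendrocyte precursor-like nuclei (298 and 271 CPM). The other 13 classes ran in the control from 103 CPM in subicular excitatory-like to 186 CPM in immature dentate granule-like nuclei, with microglia-like nuclei among them at 150 CPM. At 2000 UMIs per nucleus 23.1% of control dentate granule-like nuclei and 24.4% of microglia-like nuclei had a UMI, so the granule share was no higher than the reference at equal depth, although per nucleus the counts were 1.59 and 0.345 UMIs. In the control, immature dentate granule-like (186 CPM, 179 to 193) and MGE inhibitory-like nuclei (183 CPM, 176 to 191) lay above the microglia-like interval (138 to 164). The GENCODE M21 model of Fgfr2 spans 2961 kb and overlaps 48 other counted genes, 22 on the same strand, so its low counts are uncertain. No class was 1.5-fold apart, and the log2 ratios lay between -0.13 and 0.33. The 0.33 was in CA3-like nuclei, with 4316 and 4450 UMIs (146 and 183 CPM, 0.27 to 0.39).

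Fgfr3 was confined by the minimum to astrocyte-like nuclei, with 1849 and 1588 UMIs (199 and 215.5 CPM, log2 ratio 0.12, 0.02 to 0.21), and radial glia-like nuclei, with 126 and 79 UMIs (76.3 and 73.9 CPM, -0.04, -0.47 to 0.37). A UMI was found in 56.2% and 54.9% of astrocyte-like nuclei and in 2.43% and 1.08% of microglia-like nuclei. All other classes were at 13.8 CPM or less in the control.

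**Figure D3:**
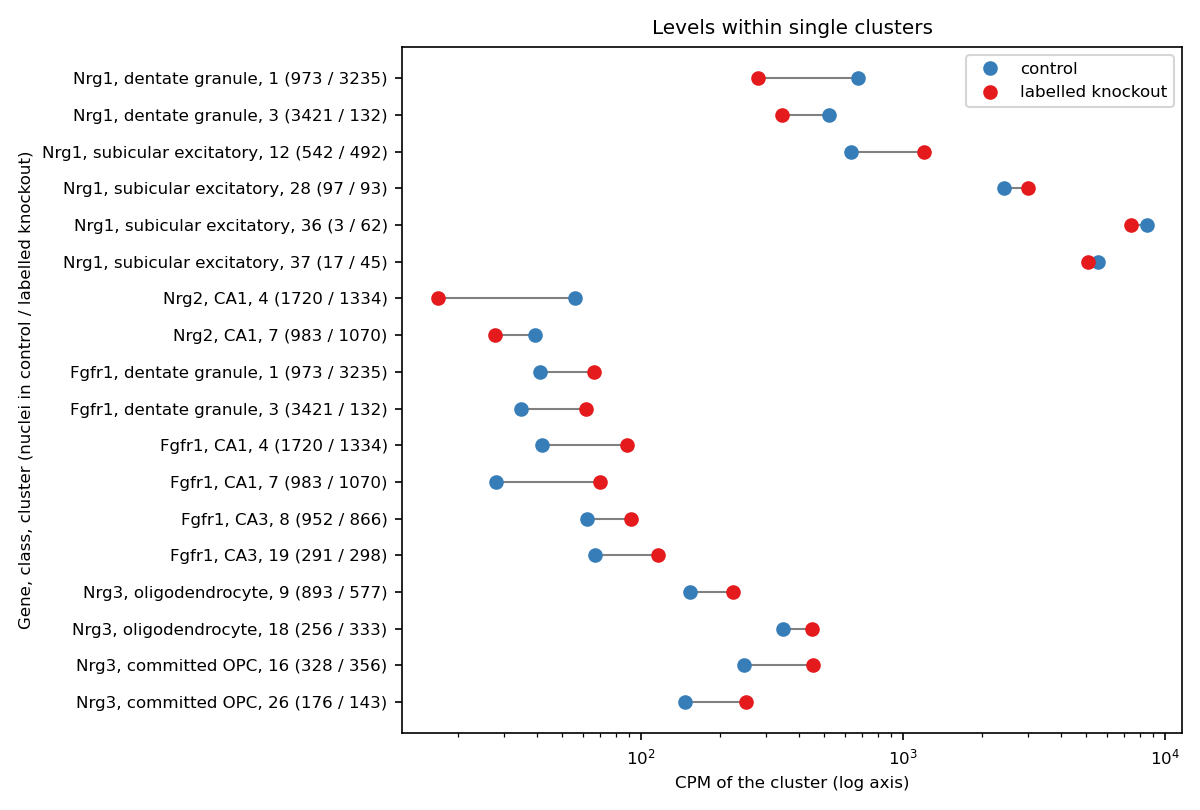
CPM (log axis) of 4 genes within the single clusters that make up a class, control in blue and the library labelled knockout in red, with the number of nuclei in each library in brackets. Fgfr1 is to the right in the library labelled knockout in all 6 clusters shown, and Nrg2 is to the left in both CA1-like clusters.

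Nuclei were assigned a sex by Xist and Y-linked UMIs, and the rest had none. In the control 6456 of 21865 nuclei were female and 9500 male, and under the knockout label 6284 and 9120 of 20531. Among assigned nuclei this separates the 1 female from the 2 male mice of each pool without making replicates. Both sexes can thus lie on 1 side of the value for all nuclei. Fgfr1 in CA2-like nuclei gave 0.59 in all, 0.41 in female and 0.44 in male nuclei. Of the 20 pairs at least 1.5-fold apart, 17 had the sign of all nuclei in both female and male nuclei and 11 were past 1.5-fold in both. Of the 3 others, Nrg1 and Nrg3 in microglia-like nuclei had opposite signs in the sexes, and Erbb4 in Cajal-Retzius-like nuclei was lower in both sexes. The female and male nuclei are part of those by which the 20 pairs were chosen, so agreement in sign is partly built in. The same share over all genes was not counted.

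**Figure D4:**
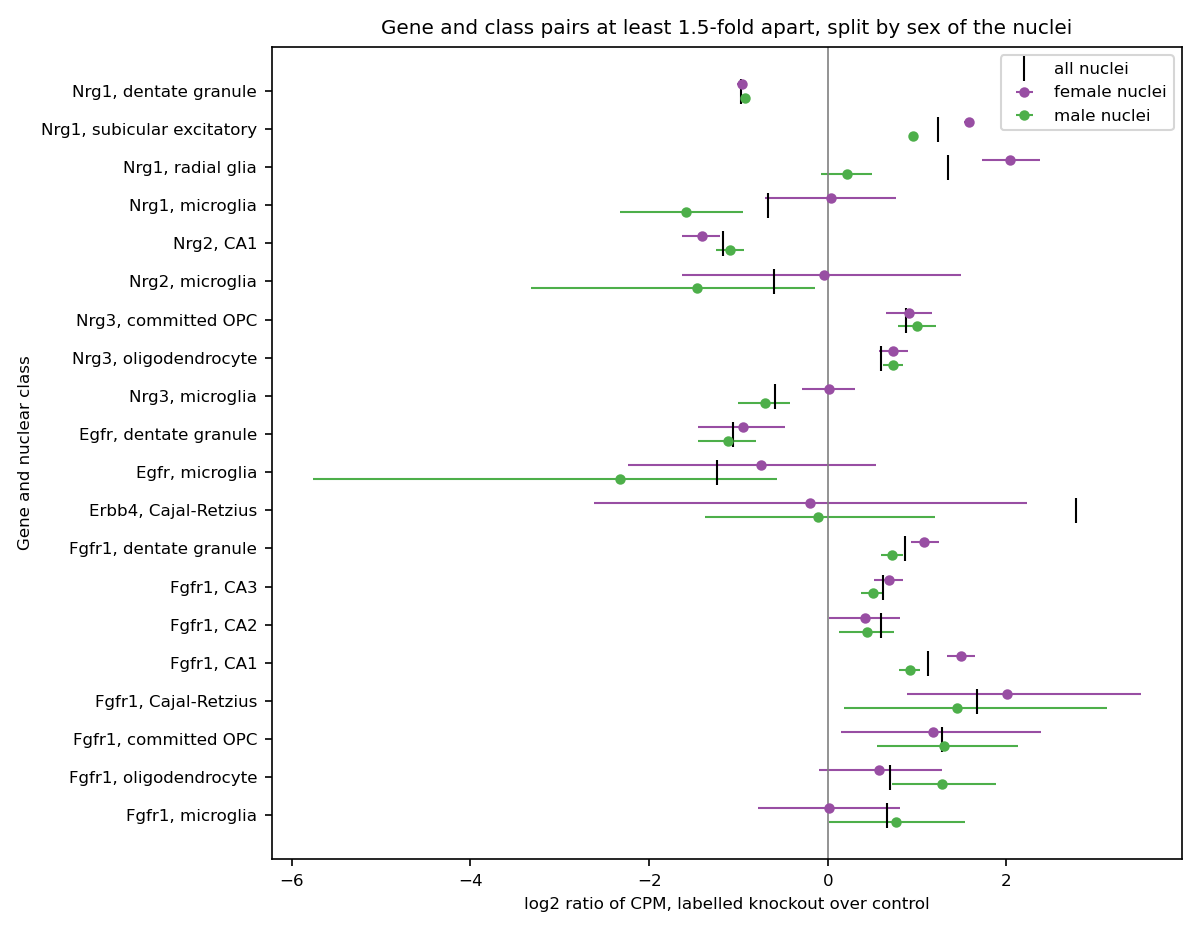
Log2 ratio of CPM (library labelled knockout over control) for the 20 pairs at least 1.5-fold apart, in all nuclei (black bars), female nuclei (purple) and male nuclei (green) with 95% counting intervals. Nrg1 in dentate granule-like nuclei lies at -0.97 and -0.92 in the 2 sexes, and Nrg1 in radial glia-like nuclei at 2.04 and 0.22.

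A list of 53 other genes of both pathways was read beside the receptors and neuregulins; 33 of them reached the minimum in at least 1 class, in 393 pairs. Of these pairs 14 were higher and 2 lower by 2-fold or more, beside 1.10% and 0.472% of all genes. Secreted FGF ligands, with 5 of 15 genes past the minimum, held 11 of the 14, of which Fgf1 alone gave 10 and Fgf10 gave 1. Their median log2 ratio was 0.24 over 34 pairs and 0.03 over the 19 pairs without Fgf1. Among ErbB ligands 3 of 8 passed the minimum and 1 of 14 pairs was 2-fold lower. Erbb2, the partner receptor of Erbb3 and Erbb4, reached the minimum in 0 classes. The proteases that cleave neuregulins (Adam10, Adam17, Adam19 and Bace1) passed in 57 pairs, of which 0 were 2-fold apart; the ErbB binding partners and inhibitors had 0 of 128 pairs. Receptor adaptors and FGF receptor inhibitors had 3 of 159 pairs, all higher.

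Fgf1, a ligand of all FGF receptors, was higher by at least 2-fold in 10 classes. Dentate granule-like nuclei had 53 Fgf1 UMIs against 2016 under the knockout label (0.980 and 53.0 CPM, log2 ratio 5.74, 5.36 to 6.18). CA3-like nuclei had 264 and 1291 UMIs (2.57) and CA1-like nuclei 625 and 2280 (2.23), so the ligand and Fgfr1 were both higher in these 3 classes. Cajal-Retzius-like nuclei had 0 and 69 Fgf1 UMIs. With the control set at a floor of 3 UMIs, the levels were 18.6-fold apart, which leaves out the counting error of the 69 UMIs. The counting interval of the log2 ratio, which covers that error, began at 3.88. Fgf10, another FGF ligand, was higher in dentate granule-like nuclei (314 and 515 UMIs, 1.22), whereas CA1-like nuclei had 1003 and 455 UMIs (-0.78). Fgf2 was lower in CA2-like nuclei, with 60 and 14 UMIs (-1.51, -2.50 to -0.69). Gab1, an adaptor of receptor tyrosine kinases, had 74 and 461 UMIs in CA3-like nuclei (2.92) and 12 and 51 in CA2-like nuclei (2.59). Flrt2, a membrane protein that can bind FGF receptors, had 1907 and 3291 UMIs in dentate granule-like nuclei (1.29). Tgfa, an Egfr ligand, had 104 and 35 UMIs in astrocyte-like nuclei (-1.22, -1.83 to -0.67), where Egfr itself gave -0.06.

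For each gene the 3 genes with the most similar level were sought over 34 points, the 17 classes in each library, by Pearson's r of log2(CPM + 1) among 14161 genes. The points share 2 libraries and a common depth scale, and r is given as a description. Overlapping antisense genes led for Nrg3 (Nrg3os, 0.998), Egfr (Egfros, 0.939) and Fgfr1 (Gm16159, 0.923), and reads of such pairs may not be separable. After them came Gm20642 (0.992), which also overlaps Nrg3, and Bicdl1 (0.967) for Nrg3, Nr2e1 (0.907) and Sox1 (0.891) for Egfr, and Gm56518 (0.865) and Tgfb2 (0.863) for Fgfr1. Fgfr3 was closest to Aldoc (0.969) and Slco1c1 (0.968), genes known from astrocytes, and to Pdgfrl (0.966). Erbb3 was closest to Gsn (0.910), Sh3tc2 (0.901) and Eeig1 (0.898), and Erbb4 to Cux2 and Gm42695 (0.901 each) and Sox2ot (0.891). For Fgfr2 the genes were Nsdhl (0.940), Myh6 (0.913) and Idi1 (0.911). Nrg1 was closest to Plekha6 (0.855), Gm19461 (0.831) and Khdrbs2 (0.817), and Nrg2 to Prkar2b (0.831), Shisa9 (0.818) and Gsg1l (0.789).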

How the data were processed

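Raw UMI counts per gene and nucleus were deposited by the authors in 1 matrix per library, without normalization; they were made with Cell Ranger 8.0.1 on mm39, per the file headers and the submitters' processing notes. No mm39 genome was used, so the only coordinates are RefSeq's for GRCm38.p6; GENCODE M21, which held 94.9% of the gene identifiers, served for overlaps.

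Nuclei under 500 genes or over 5% mitochondrial UMIs were removed, then 3195 control and 2512 labelled knockout doublets (Scrublet in scanpy 1.11.5, expected rate 0.1). Both libraries were clustered together in Python 3.11.15 without batch correction (3000 variable genes, 30 components, 15 neighbours, Leiden resolution 1, leidenalg 0.10.2), leaving out the 9 genes, the pathway list, sex-linked and mitochondrial genes. Clusters were named from 23 marker sets (at least 3 markers raised by a log2 fold of 0.5); 5 of 40 clusters, with 4.14% and 4.90% of nuclei, stayed unnamed.

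UMIs were summed per class and library, 0.5 UMI was added to each sum for ratios, and intervals are exact: Poisson for levels, conditional binomial for ratios, Clopper-Pearson for shares. Nuclei were called female with 2 or more Xist UMIs and no Y-linked UMI, and male with 1 or more UMIs of Uty, Kdm5d, Ddx3y or Eif2s3y and none of Xist. The ratio and its interval were run on simulated Poisson sums with known folds. These sums have no spread between nuclei or mice, so the run checks the calculation only. Named genes were the 9, Cic, Etv4, pathway genes past 2-fold, and the 3 most similar genes of each. Erbb2, the proteases, clusters, overlapping partner genes and single lower pathway values were named outside this rule, after their values were seen. The genes and lists were chosen with earlier results of these data known.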

Additional observations from a re-analysis of the deposited data

Results flagged for a closer look

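Nrg1 was flagged because classes went opposite ways under 1 contrast by 1.5-fold or more. Its log2 ratio was -0.97 in dentate granule-like and -0.67 in microglia-like nuclei, and 1.24 in subicular excitatory-like and 1.34 in radial glia-like nuclei. The microglia-like value became 0.45 with doublets kept and 0.033 in female nuclei, and the radial glia-like value 0.22 in male nuclei. Nrg3 did so at 0.88 in committed oligodendrocyte precursor-like, 0.59 in oligodendrocyte-like and -0.60 in microglia-like nuclei. Its lower side is 1 class, which also serves as the reference for free RNA and gave 0.010 in female nuclei. On its higher side the ratios were -0.02 and -0.58 with doublets kept. The differences between classes were not tested, and how many of all genes go opposite ways by this rule was not counted.

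Classes with under 100 nuclei in a library were outside the comparisons. Among them Nrg1 had 104 and 246 UMIs in ependymal or choroid-like nuclei (1.23) and 53 and 267 in fibroblast-like nuclei (1.42), and Erbb4 had 33 and 315 in fibroblast-like nuclei (2.34). In each of these the 5 leading nuclei held between 64.4% and 95.6% of the UMIs of a library. Nrg1 went the other way in endothelial-like nuclei, with 144 and 35 UMIs (-1.40, -1.99 to -0.87), and differed little in mossy cell-like nuclei (0.03).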

How the results depend on the processing

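No paired analysis was possible because each group is 1 library. The 20 log2 ratios at least 1.5-fold apart were recomputed under 18 alternatives, 5 of them chosen after seeing the data (without clusters 36, 37 or 39, without shared barcodes, without the 5 leading nuclei). Of 354 values, 281 stayed within the counting interval and 9 changed sign. The 9 were Erbb4 in Cajal-Retzius-like nuclei in female (-0.20) and male nuclei (-0.11); Nrg1 in microglia-like nuclei with doublets kept (0.45) and in female nuclei (0.033); Nrg2 there as a mean over nuclei (0.24); Nrg3 there in female nuclei (0.010); Egfr there without cluster 39 (0.33); and Nrg3 with doublets kept in committed oligodendrocyte precursor-like (-0.023) and oligodendrocyte-like nuclei (-0.58). The cause was not tested. Over their alternatives Nrg1 in dentate granule-like nuclei ran from -1.0 to -0.79, Nrg2 in CA1-like nuclei from -1.41 to -1.03, and Fgfr1 from 0.92 to 1.49 in CA1-like and from 0.66 to 1.08 in dentate granule-like nuclei.

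The count of 20 pairs at least 1.5-fold apart became 9 with nuclei thinned to 2000 UMIs, where fewer pairs reach the minimum, and 35 with no minimum. The count of 9 pairs at least 2-fold apart became 4 thinned, 5 in female nuclei and 18 with no minimum. CA2-like nuclei were not named at Leiden resolution 0.5, and a subtraction of the microglia-like level gives no value for microglia-like nuclei themselves. Depth limits the low levels, Egfr in granule nuclei and Fgfr1 in oligodendrocytes among them.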

Other observations

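Mossy cell-like nuclei, the hilar excitatory neurons, numbered 72 (control) and 110 (labelled knockout). Fgfr1 was higher there too, with 121 and 272 UMIs (63.3 and 110.3 CPM, log2 ratio 0.80, 0.49 to 1.12), and 72.2% and 86.4% of nuclei had a UMI. Nrg3 was lower (6886 and 5410 CPM, -0.35), as in the pyramidal classes, and Nrg1 differed little (47.0 and 48.3 CPM, 0.03). Erbb4 had 88 and 7 UMIs, of which 5 control nuclei held 96.6%. Fibroblast-like nuclei had Egfr at 374 and 415 CPM, with 46.6% and 46.5% of nuclei having a UMI.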
